A study of Mus musculus with 59 samples.

Results

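Potassium channel genes were examined in mouse cortex and hippocampus. Of 57180 gene rows in the deposited counts, 99 had a symbol that begins with Kcn and a further letter. Antisense and opposite-strand rows (5) and the choroid plexus genes Kcnj13 and Kcne2 were left out, and 70 of the remaining 92 genes had a mean of at least 1 CPM (a gene's count scaled to the total count of its library) in wild-type cortex or hippocampus. These 70 genes are the members described here. All 70 reached 1 CPM in both tissues, so none entered through the tissue in which it was higher. Kcna5 (means of 1.29 CPM in cortex and 2.07 in hippocampus) and Kcne1l (1.49 and 4.20) lay just inside the threshold, and Kcne4 (0.887 and 0.994) and Kcnrg (0.931 and 0.951) just outside. Of the genes left out by name, Kcnj13 had wild-type means of 0.161 (cortex) and 0.120 (hippocampus) CPM and Kcne2 of 0.188 and 0.247 CPM.

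The study measured poly(A) RNA in 59 libraries from 30 male mice, of which 29 gave both tissues. The mice carried 1 or no heterozygous allele of Slc25a1, which encodes the mitochondrial citrate carrier, and of Mrpl40, which encodes a mitochondrial ribosomal protein. Wild type is labelled Mrpl40 +/+,Slc25a1 +/+ (9 cortex and 8 hippocampus libraries), the Slc25a1 heterozygote Mrpl40 +/+,Slc25a1 -/+ (7 and 7), the Mrpl40 heterozygote Mrpl40 -/+,Slc25a1 +/+ (7 and 7) and the double heterozygote Mrpl40 -/+,Slc25a1 -/+ (7 and 7). The replicates are separate animals, and the 8 wild-type hippocampus libraries come from animals that also gave cortex. The sources used here do not give age, strain or the kind of each allele.

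Potassium channels let potassium leave the neuron, which repolarizes the action potential and sets the resting potential. Voltage-gated (Kv) channels are tetramers of pore subunits from the same subfamily, and several subfamilies hold electrically silent subunits that form channels only in tetramers with Kv2. Inward rectifiers and 2-pore channels hold the membrane near rest, and calcium- and sodium-activated channels follow the ions that enter during firing. Cytoplasmic and membrane-spanning accessory subunits set how many channels reach the surface and how fast they inactivate. In forebrain these genes differ between types of neuron, and a few of them, such as Kcnj10, are known mainly from glia.

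Promoters are shown for 6 members, because they belong to the members that moved most between the tissues and each has a single listed start. They are 3 rises (Kcne1l, Kcna4, Kcnip2) and 3 falls (Kcnh4, Kcnh5, Kcnh7) among the named members of that kind. No promoter is shown for Kcng2, the member with the largest rise. Its absence here does not mean that it lacks a single listed start. The sequences are from RefSeq in build GRCm38.p6, run 5′ to 3′ on the gene's strand and cover 250 bases before to 50 bases after the start. Capitals mark matches on either strand to an E-box (CANNTG) or an Sp1 box (GGGCGG), and matches that touch or overlap run together.
Kcne1l, chrX:142306149-142306448, minus strand: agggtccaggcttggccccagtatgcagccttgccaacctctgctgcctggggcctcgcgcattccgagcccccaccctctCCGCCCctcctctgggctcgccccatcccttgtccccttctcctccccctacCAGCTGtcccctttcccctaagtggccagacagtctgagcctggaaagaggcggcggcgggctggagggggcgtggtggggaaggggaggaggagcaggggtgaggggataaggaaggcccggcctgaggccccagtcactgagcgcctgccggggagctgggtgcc
Kcna4, chr2:107290339-107290638, plus strand: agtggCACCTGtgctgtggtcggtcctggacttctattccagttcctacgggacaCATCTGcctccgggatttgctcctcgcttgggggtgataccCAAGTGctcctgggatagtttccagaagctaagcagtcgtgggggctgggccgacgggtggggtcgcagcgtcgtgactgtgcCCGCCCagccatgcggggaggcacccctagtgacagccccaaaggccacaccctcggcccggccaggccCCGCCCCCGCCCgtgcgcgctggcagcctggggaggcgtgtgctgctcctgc
Kcnip2, chr19:45816014-45816313, minus strand: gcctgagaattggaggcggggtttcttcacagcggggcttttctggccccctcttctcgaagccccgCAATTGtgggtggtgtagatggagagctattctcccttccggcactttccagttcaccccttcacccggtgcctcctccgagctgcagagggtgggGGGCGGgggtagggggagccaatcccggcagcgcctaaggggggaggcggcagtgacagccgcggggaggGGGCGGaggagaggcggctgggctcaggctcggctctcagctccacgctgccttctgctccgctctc
Kcnh4, chr11:100759729-100760028, minus strand: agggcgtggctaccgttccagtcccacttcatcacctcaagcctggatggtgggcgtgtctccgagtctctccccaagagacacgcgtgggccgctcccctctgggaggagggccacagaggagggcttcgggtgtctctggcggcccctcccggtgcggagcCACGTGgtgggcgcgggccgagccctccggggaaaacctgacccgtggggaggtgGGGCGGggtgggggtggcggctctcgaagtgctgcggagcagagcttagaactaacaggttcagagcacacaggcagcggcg
Kcnh5, chr12:75177283-75177582, minus strand: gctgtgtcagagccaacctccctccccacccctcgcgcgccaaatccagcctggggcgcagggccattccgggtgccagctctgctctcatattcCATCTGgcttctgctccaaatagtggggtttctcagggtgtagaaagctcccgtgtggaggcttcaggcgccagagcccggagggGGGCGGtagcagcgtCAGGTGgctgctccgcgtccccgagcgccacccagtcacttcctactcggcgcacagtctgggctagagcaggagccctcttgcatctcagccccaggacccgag
Kcnh7, chr2:63184238-63184537, minus strand: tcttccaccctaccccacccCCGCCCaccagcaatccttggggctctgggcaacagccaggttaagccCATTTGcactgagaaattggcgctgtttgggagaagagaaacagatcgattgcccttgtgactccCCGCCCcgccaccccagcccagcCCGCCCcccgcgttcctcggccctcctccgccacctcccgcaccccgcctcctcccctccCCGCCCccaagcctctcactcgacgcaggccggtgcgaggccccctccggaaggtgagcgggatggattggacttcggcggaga
All 6 windows held at least 1 E-box and at least 1 Sp1 box, and none held TGACGTCA (cAMP response element) or TATAAA. Their GC content lay between 65.3% and 69.7%. Promoters were found for 48 of the 70 members, 71 promoters in all, with a median GC content of 60.3% against 52.7% over all 32851 promoters. The E-box was in 71.8% of member promoters and 72.3% of all, and the Sp1 box in 49.3% and 35.7%. TATAAA was in 4.23% of member promoters and 13.6% of all, and TGACGTCA in 0 of 71 and in 1.79% of all. These shares describe letters in a window and were not related to the levels.

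Library totals ran from 21443017 to 32120906 counts. Slc25a1 went against the label in 6 animals, in both tissues of each: 2 labelled wild type lay at 11.5 to 12.7 CPM, within 10.5 to 13.25 CPM of the other 10 animals labelled Slc25a1 -/+, and 4 labelled Slc25a1 -/+ lay at 20.75 to 26.95 CPM, beside 21.3 to 26.9 CPM of the other animals labelled Slc25a1 +/+. Genotypes are therefore given as labelled. Mrpl40 did not separate the labels (group means of 17.1 to 17.8 CPM in cortex and 15.6 to 16.0 in hippocampus). Of the tissue markers, all 5 of dentate granule cells and all 4 of CA3 were higher in hippocampus and all 6 of neocortical layers lower, while 2 of 4 CA1 markers were higher and their sum overlapped between the tissues (89.8 to 174.5 CPM in cortex and 93.0 to 566 in hippocampus). Of other types, 5 of 6 interneuron markers were lower, astrocyte markers split 4 higher and 1 lower of 6, excitatory neuron markers 2 higher and 1 lower of 5, and thalamus markers 2 higher and 1 lower of 4, and 1 of 5 tested choroid plexus markers was higher. Of 6 markers each, none of oligodendrocytes, of microglia or of endothelial cells and pericytes passed the test. In whole tissue, fewer cells of a type and less RNA per cell cannot be told apart, and the part of these marker differences in the results below was not tested. Hippocampus wild-type library 8 had the highest neocortical layer sum (253 CPM, other hippocampus libraries 154 to 209.5), oligodendrocyte sum (4713 CPM, others 1972 to 4191), interneuron sum (772 CPM, others 449 to 684), the lowest excitatory neuron sum (5837 CPM, others 7439 to 9564) and a dentate sum of 590.5 CPM (others 520.3 to 1175). Slc25a1 het library 3 had cerebellar granule cell markers at 350.4 CPM (others at most 7.63), Mrpl40 het library 5 the lowest dentate sum (520.3 CPM, others 590.5 to 1175) and double het library 6 the highest choroid plexus sum (98.4 CPM, others at most 73.1), all in hippocampus.

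More potassium channel genes were lower than higher in hippocampus relative to cortex. In wild type, 39 of the 70 members were lower, 17 were higher and 14 did not pass the test (edgeR quasi-likelihood test with the animal as a block, adjusted p under 0.05). Over all 21354 genes tested, 60.6% passed in either direction, 30.4% higher and 30.1% lower. The counts given below for each group of channels are to be read beside these shares. The median log2 fold change of the members was -0.31, against 0.0066 for all genes. Member counts made up 0.674% ± 0.0202 of a wild-type cortex library (SD, n = 9) and 0.577% ± 0.0119 of a wild-type hippocampus library (SD, n = 8). At 2-fold or more, 3 members rose and 17 fell, where 6.12% and 7.54% of all genes did. In 14 members every wild-type hippocampus library lay above every wild-type cortex library, in 30 every one lay below, and in 26 the libraries overlapped. Libraries of the 2 tissues did not overlap for 26.7% of all genes tested (14.8% above and 11.9% below). The members were chosen at 1 CPM or more, while all genes tested include some below that level. The part of level in comparisons of the members with all genes was not tested.

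**Figure D1:**
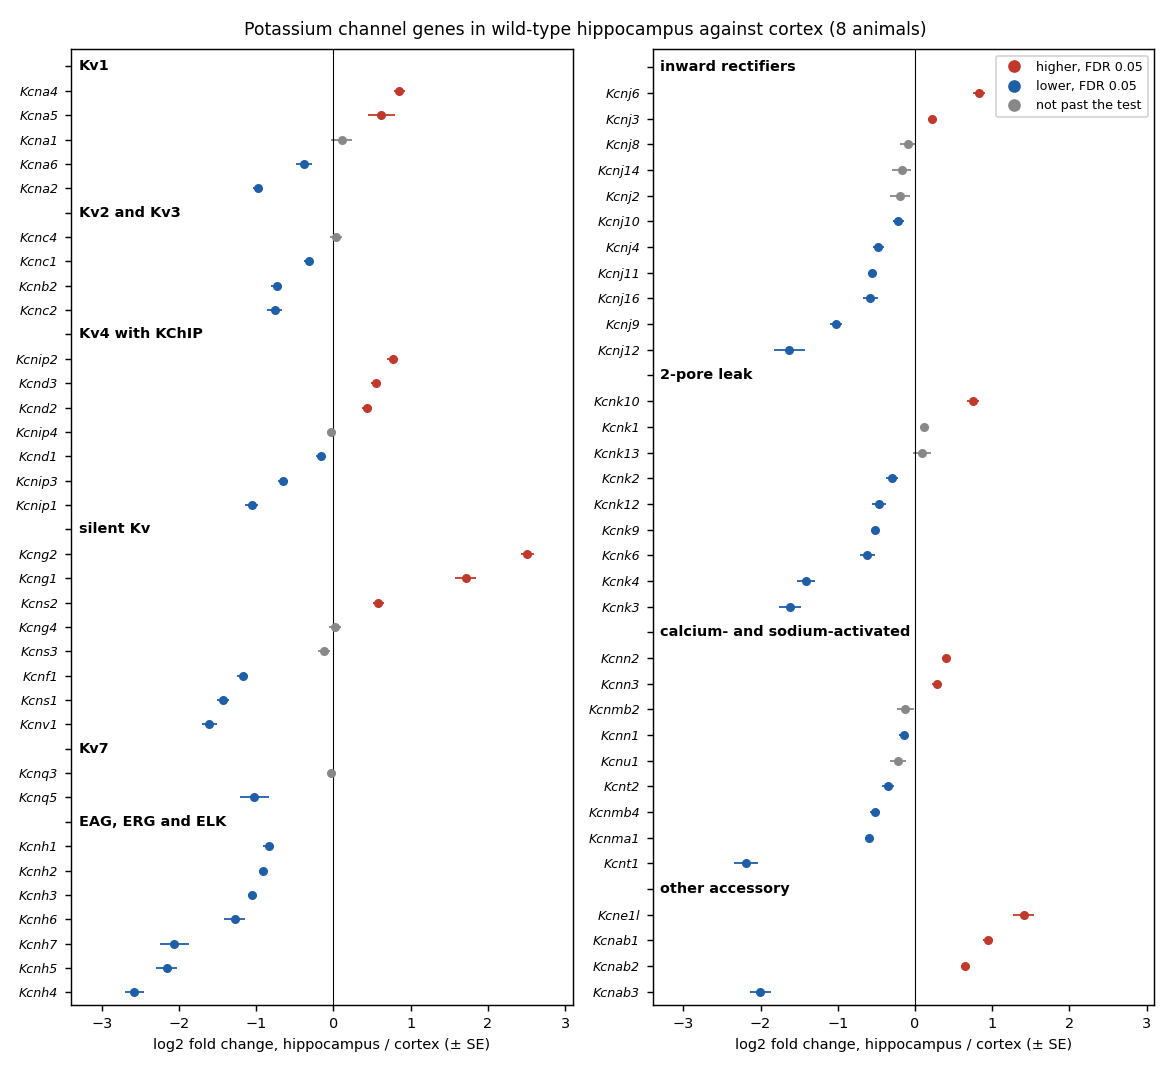
Log2 fold change of the members named in the text in wild-type hippocampus against cortex (x axis, points, with SE as bars, 8 animals), grouped by role, with members past the edgeR test in red (higher) or blue (lower) and the others in grey. The 7 EAG, ERG and ELK genes all lie left of 0, while Kcng2 at 2.51 lies farthest right.

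The EAG, ERG and ELK genes encode voltage-gated channels with a cytoplasmic domain that resembles a cyclic nucleotide-binding site. All 7 of 7 members fell, with a median log2 fold change of -1.28, where 30.1% of all genes fell. Each member lay lower in hippocampus in 29 of 29 animals, where 12.9% of all genes did. The summed level of the 7 members ran from 536 to 629 CPM (median 599.6) in wild-type cortex. In wild-type hippocampus it ran from 240.2 to 272 CPM (median 248), without overlap. Kcnh4, an ELK channel, had 34.4 to 51.9 CPM (median 47.4) in the 9 cortex libraries and 5.90 to 11.0 CPM (median 7.5) in the 8 hippocampus libraries. The lowest cortex library was above the highest hippocampus library, and the log2 fold change was -2.58 ± 0.13 (SE, edgeR adjusted p 2.87e-16). Kcnh3, the other ELK member, was the highest of the list in both tissues by CPM, a unit that does not account for gene length. It had 207 to 239 CPM (median 231) in cortex and 107 to 116 CPM (median 114) in hippocampus, a log2 fold change of -1.05 ± 0.051. Kcnh7, an ERG channel, had 126 to 172 CPM (median 146) in cortex and 23.8 to 64.0 CPM (median 34.0) in hippocampus (-2.06 ± 0.19, edgeR adjusted p 2.99e-10). Its hippocampal values spread more widely than those of Kcnh4, with library 8 at the top, but stayed below all cortex libraries. The other ERG channels fell less, Kcnh2 by 0.92 and Kcnh6 by 1.28 on the log2 scale. Of the EAG pair, Kcnh5 had 7.42 to 13.3 CPM (median 9.76) and 1.39 to 3.18 CPM (median 2.35) (-2.16 ± 0.14), and Kcnh1 changed by -0.84 ± 0.072. Kcnh8, also of this family, was too low to be a member, at wild-type means of 0.373 CPM in cortex and 0.665 in hippocampus. Its log2 fold change was positive and did not pass (0.68 ± 0.32, edgeR adjusted p 0.0669).

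Calcium- and sodium-activated channels shape the afterhyperpolarization. Of the 9 members of this list, which also holds Kcnu1 and beta subunits, 5 fell, 2 rose and 2 did not pass, with a median of -0.22. Kcnt1, a sodium-activated channel, had 208 to 264 CPM (median 239) in cortex and 35.8 to 120.3 CPM (median 51.1) in hippocampus, with a log2 difference of -2.19 ± 0.16 (edgeR adjusted p 3.21e-12). All hippocampus libraries lay below all cortex libraries, and 1 of them, library 8, lay far above the others of its group. Its relative Kcnt2 changed by only -0.35 ± 0.074. Kcnma1, the large-conductance (BK) pore and the highest of the list by CPM, had 307 to 349 CPM (median 329.6) in cortex and 202 to 264 CPM (median 219) in hippocampus, a log2 fold change of -0.60 ± 0.048, and its neuronal beta subunit Kcnmb4 changed by -0.52 ± 0.065. The small-conductance (SK) channels split: Kcnn2 rose by 0.40 ± 0.052 and Kcnn3 by 0.28 ± 0.065, while Kcnn1 changed by -0.15 ± 0.059 (edgeR adjusted p 0.0312). Kcnmb2 (-0.13 ± 0.11) and Kcnu1 (-0.22 ± 0.099) did not pass. Reads of Kcnmb4 and of its 2 opposite-strand rows (means of 0.672 and 2.31 CPM in cortex, 0.574 and 1.92 in hippocampus) may be shared, since the sources used here do not give the strand setting of the counting.

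Silent subunits, which modify Kv2 channels, held both the largest rise and large falls. In this list 3 of 8 members rose, 3 fell and 2 did not pass (median -0.049), where 30.4% of all genes rose and 30.1% fell. Kcng2 had 2.60 to 4.11 CPM (median 3.42) in cortex and 12.6 to 23.3 CPM (median 19.8) in hippocampus. Even its lowest hippocampus library, library 8, lay above every cortex library, and the log2 fold change of 2.51 ± 0.079 (edgeR adjusted p 8.27e-24) was the largest rise among the members. Kcng1, of the same subfamily, had 12.7 to 25.2 CPM (median 18.2) in cortex and 52.9 to 87.6 CPM (median 60.5) in hippocampus, a log2 fold change of 1.71 ± 0.13, also without overlap. Kcns2 rose by 0.58 ± 0.070. Kcnv1 went the other way, with 114 to 149 CPM (median 129) in cortex and 38.1 to 49.7 CPM (median 41.5) in hippocampus and a log2 fold change of -1.61 ± 0.098. Kcns1 fell as well (-1.43 ± 0.079), from a cortex range of 25.9 to 33.5 CPM (median 28.1), and its hippocampus range of 8.64 to 15.5 CPM (median 10.3) lay wholly below that. Kcnf1, the highest silent subunit in both tissues by CPM, had 150.0 to 185 CPM (median 165) in cortex and 60.2 to 99.9 CPM (median 68.2) in hippocampus, a log2 fold change of -1.18 ± 0.073, with no shared range. Kcng4 (0.024 ± 0.079) and Kcns3 (-0.12 ± 0.082) did not pass.

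Kv2 channels are the main delayed rectifiers of pyramidal neurons and the partners of the silent subunits, and of these Kcnb2 fell (-0.74 ± 0.073). It had 32.4 to 46.2 CPM (median 40.1) in cortex and 21.5 to 28.8 CPM (median 22.1) in hippocampus, without overlap. Kv3 channels support fast firing. Kcnc1 (-0.32 ± 0.056) and Kcnc2 (-0.76 ± 0.098) fell and Kcnc4 did not pass (0.034 ± 0.083).

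Kv1 channels, many of which sit on axons, were split 2 higher, 2 lower and 1 not passing (median 0.10). Of all genes tested, 30.4% were higher and 30.1% lower. Kcna4, a fast-inactivating A-type channel, had 18.6 to 24.8 CPM (median 20.3) in cortex and 34.9 to 45.6 CPM (median 38.3) in hippocampus, with a log2 difference of 0.85 ± 0.066 (edgeR adjusted p 5.10e-13). The groups did not overlap. Kcna2, an axonal delayed rectifier and the highest of the list by CPM, had 338 to 454 CPM (median 391) in cortex and 174 to 262 CPM (median 199) in hippocampus, a log2 fold change of -0.98 ± 0.057. Kcna5 changed by 0.62 ± 0.18 (edgeR adjusted p 0.00265), with overlapping ranges of 0.857 to 2.29 CPM (median 1.2) in cortex and 1.71 to 2.53 CPM (median 2.00) in hippocampus. Kcna6 changed by -0.38 ± 0.10, and Kcna1 did not pass (0.10 ± 0.14).

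Kv4 channels carry the A-type current of dendrites, and the calcium-binding KChIP proteins bring them to the surface. Of these 7 members 3 rose, 3 fell and 1 did not pass (median -0.032), where 30.4% of all genes rose and 30.1% fell. The pore genes Kcnd2 (0.44 ± 0.062) and Kcnd3 (0.55 ± 0.067) rose and Kcnd1 changed by -0.16 ± 0.056 (edgeR adjusted p 0.0120). Reads of Kcnd3 could include those of its opposite-strand row, at means of 1.38 CPM in cortex and 1.58 in hippocampus. Among the KChIPs, Kcnip2 had 131 to 178 CPM (median 153) in cortex and 186 to 314 CPM (median 275) in hippocampus, with a log2 difference of 0.77 ± 0.073 (edgeR adjusted p 2.06e-10). Its hippocampal minimum, library 8, was still above the cortical maximum. Kcnip3, the highest KChIP in cortex by CPM, had 146 to 172 CPM (median 157) in cortex and 87.0 to 124 CPM (median 104) in hippocampus, a log2 fold change of -0.66 ± 0.064, Kcnip1 changed by -1.06 ± 0.080 and Kcnip4 did not pass (-0.032 ± 0.058).

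Kv7 channels carry the M-current, which acetylcholine suppresses. Kcnq3 was at 212 ± 10.1 CPM in cortex (SD, n = 9) and 212 ± 14.4 CPM in hippocampus (SD, n = 8) and did not pass (-0.027 ± 0.054, interval -0.14 to 0.082). Kcnq5 fell (-1.02 ± 0.19), with 103 to 155 CPM (median 131) in cortex and 43.5 to 76.5 CPM (median 63.2) in hippocampus, and every hippocampus library lay below every cortex library.

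Inward rectifiers hold the resting potential and couple it to G proteins and metabolism. Of 11 members 6 fell, 2 rose and 3 did not pass (median -0.22). The G protein-gated (GIRK) subunits went in opposite directions. Kcnj6 had 16.4 to 19.6 CPM (median 18.4) in cortex and 26.0 to 37.0 CPM (median 33.3) in hippocampus, with a log2 difference of 0.83 ± 0.074 (edgeR adjusted p 2.34e-11), without overlap, and Kcnj3 rose by 0.22 ± 0.051. Kcnj9 had 259.5 to 294 CPM (median 270.5) in cortex and 111 to 187 CPM (median 133) in hippocampus, a log2 fold change of -1.02 ± 0.074, and every hippocampus library lay below every cortex library. Kcnj3, with 166 to 192 CPM (median 169) in cortex and 188 to 224 CPM (median 206) in hippocampus, was the highest of the list by CPM in hippocampus in place of Kcnj9. Kcnj12, a strong rectifier, had 8.68 to 12.5 CPM (median 10.0) in cortex and 2.19 to 7.60 CPM (median 2.94) in hippocampus, a log2 fold change of -1.63 ± 0.20, with library 8 highest. Another strong rectifier, Kcnj4, changed by -0.48 ± 0.069, and Kcnj11, the pore of the ATP-sensitive channel, by -0.56 ± 0.058. The glial Kcnj10 changed by -0.22 ± 0.071 (edgeR adjusted p 0.00920) and its partner Kcnj16 by -0.58 ± 0.099. Over all genotypes Kcnj10 was lower in hippocampus in 19 of 29 animals and Kcnj16 in 29 of 29. The fall of Kcnj10 passed in only 2 genotypes. Astrocyte marker sums ran from 936.5 to 1263 CPM in cortex and 1412 to 2327 CPM in hippocampus over all genotypes, the direction opposite to that of this pair, and the part of astrocytes in these values was not tested. Kcnj2 (-0.20 ± 0.13), Kcnj8 (-0.10 ± 0.10) and Kcnj14 (-0.17 ± 0.13) did not pass.

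The 2-pore channels carry the leak current. Of 9 members 6 fell, 1 rose and 2 did not pass (median -0.47). Kcnk10, a mechanically and lipid gated channel, had 8.70 to 11.1 CPM (median 9.97) in cortex and 14.4 to 21.6 CPM (median 17.2) in hippocampus, a log2 fold change of 0.75 ± 0.081, while its close relatives fell. Kcnk4 had 22.9 to 31.2 CPM (median 28.3) in cortex and 7.13 to 14.8 CPM (median 11.2) in hippocampus, a log2 fold change of -1.41 ± 0.12, and Kcnk2 changed by -0.30 ± 0.081. Ranges of Kcnk10 and of Kcnk4 did not overlap between the tissues. Acid-sensitive Kcnk3 had 27.3 to 33.8 CPM (median 28.7) in cortex and 6.65 to 15.6 CPM (median 9.37) in hippocampus, a log2 fold change of -1.62 ± 0.14, and the related Kcnk9, the highest of the list by CPM in both tissues, had 138 to 168 CPM (median 158) in cortex and 98.4 to 141 CPM (median 108) in hippocampus, a log2 fold change of -0.52 ± 0.055, with overlapping extremes. Kcnk6 (-0.62 ± 0.097) and Kcnk12 (-0.47 ± 0.093) fell, and Kcnk1 (0.12 ± 0.058, edgeR adjusted p 0.0694) and Kcnk13 (0.091 ± 0.12) did not pass.

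Among the remaining accessory members, 3 rose and 1 fell (median 0.80). Kcnab1, Kcnab2 and Kcnab3 encode the cytoplasmic beta subunits of Kv1 channels. Kcnab1 had 61.9 to 82.5 CPM (median 75.4) in cortex and 131 to 151 CPM (median 144) in hippocampus, with a log2 difference of 0.94 ± 0.065 (edgeR adjusted p 1.20e-13). Kcnab2 had 438 to 528 CPM (median 485) in cortex and 648 to 974 CPM (median 784) in hippocampus, a log2 fold change of 0.65 ± 0.056. In both, all hippocampus libraries were above all cortex libraries. Kcnab3 had 73.0 to 108 CPM (median 82.5) in cortex and 16.5 to 42.2 CPM (median 20.6) in hippocampus, with a log2 difference of -2.0 ± 0.14 (edgeR adjusted p 1.54e-12). Its opposite-strand row was at 0.285 CPM in cortex and 0.100 in hippocampus, far below it. Kcne1l, a single-span subunit of the Kcne family, had 0.914 to 2.57 CPM (median 1.51) in cortex and 3.28 to 4.86 CPM (median 4.35) in hippocampus, a log2 fold change of 1.41 ± 0.13, and no hippocampus library reached down to the cortex range.

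**Figure D2:**
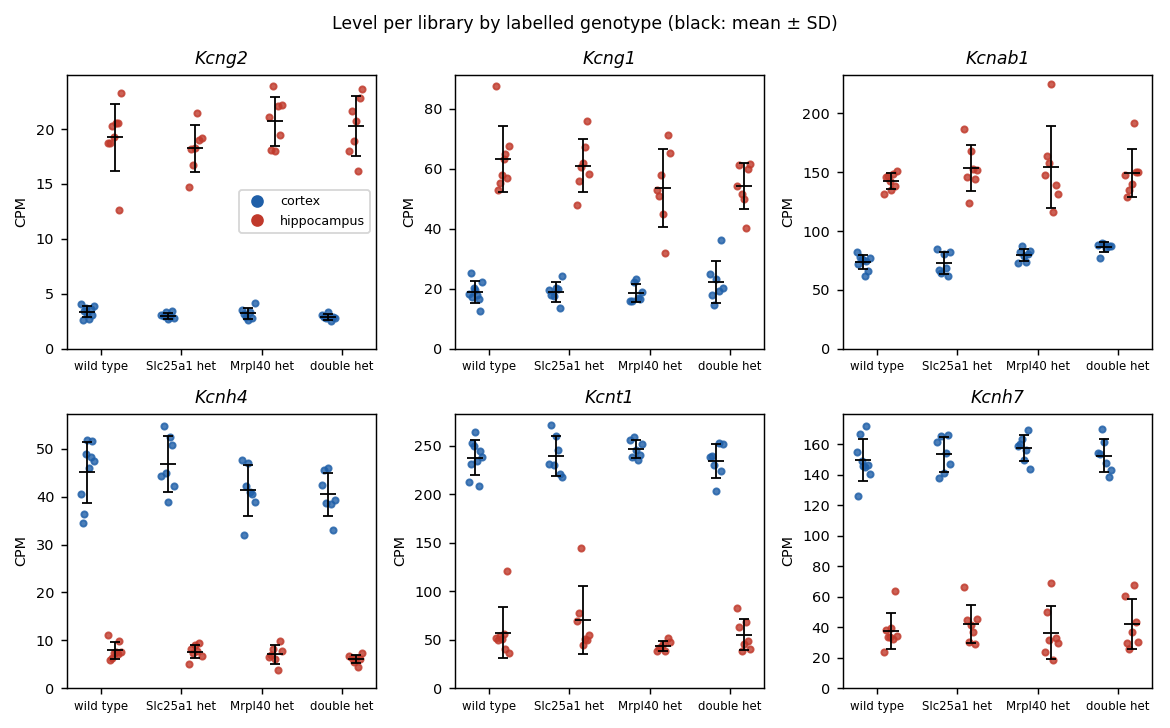
CPM of 6 members in each library (points) by labelled genotype, cortex in blue and hippocampus in red, with mean and SD in black (y axes from 0). Kcng2, Kcng1 and Kcnab1 are higher in hippocampus and Kcnh4, Kcnt1 and Kcnh7 lower in every genotype, and single hippocampus libraries of Kcnt1 and Kcnh7 lie above the rest of their groups.

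Partners of these channels with other gene names were read from a list of 16 genes, of which 15 could be tested and Lrrc52 was listed at 0. In wild-type hippocampus 2 were higher, 9 lower and 4 did not pass, where 30.4% of all genes were higher and 30.1% lower. Dpp6 and Dpp10, transmembrane partners of Kv4 channels, went in opposite directions: Dpp6 rose by 0.88 ± 0.047, from a wild-type mean of 273 ± 16.0 CPM (SD, n = 9) to 512 ± 25.3 CPM (SD, n = 8), and Dpp10 changed by -2.90 ± 0.14, from 244 ± 20.9 to 35.6 ± 17.1 CPM. Lgi1, a secreted protein that binds Adam22 beside Kv1 channels, rose by 0.90 ± 0.054. Lrrc38 (-2.09 ± 0.25) and Lrrc55 (-0.96 ± 0.074), auxiliary subunits of the BK channel, fell, as did Cntn2 (-0.64 ± 0.11), an adhesion protein that clusters Kv1 channels beside the node of Ranvier.

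Levels of different members can be compared only per length, here as mean CPM per kilobase of exon in wild type. Kcnab2 was highest in both tissues, at 86.9 in cortex and 142 in hippocampus. In cortex Kcnj9 (63.6), Kcnj4 (52.5), Kcnip3 (44.6) and Kcnip2 (43.9) followed, and in hippocampus those that followed included Kcnip2 (77.5), Kcnj3 (39.3) and Kcnj4 (38.6). The lowest were Kcna5 in cortex (0.452) and Kcnh6 in hippocampus (0.551). Kcnh4 went from rank 31 of 70 in cortex to rank 56, Kcng2 from rank 67 to rank 36 and Kcng1 from rank 45 to rank 21. These levels use the exon lengths of another annotation than the counts, which affects the order of the genes but not a gene's difference between tissues.

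**Figure D3:**
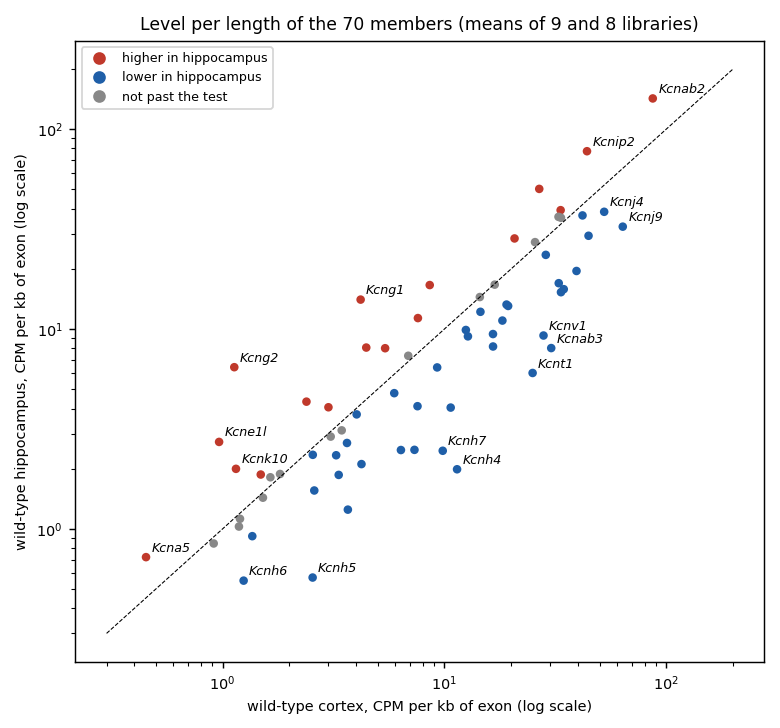
Mean CPM per kilobase of exon of each member (points) in wild-type cortex (x axis, log scale, 9 libraries) and hippocampus (y axis, log scale, 8 libraries), with equality as a dashed line and colours for members past the edgeR test. Kcnab2 lies at the top right, and Kcng2 and Kcnh4 lie far from the line on opposite sides.

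Heterozygous animals gave the same tissue pattern in separate mice. In Slc25a1 het 17 members were higher and 38 lower in hippocampus, where 60.4% of all genes passed (30.5% higher and 29.9% lower). In Mrpl40 het the counts were 18 and 42, against 60.3% of all genes (30.8% and 29.4%), and in double het 16 and 36, against 57.5% (28.9% and 28.6%). Of the 17 members higher in wild type, 17, 17 and 16 were also higher in these genotypes, and of the 39 lower, 37, 39 and 35 were also lower. No member passed in opposite directions. In all 4 genotypes together 16 members were called higher and 35 lower, where 22.2% and 22.8% of all genes were. A difference in the same direction in each of the 29 animals was found in 41 members, 13 higher and 28 lower, and in 15.5% (higher) and 12.9% (lower) of all genes. Kcng2 was at 2.53, 2.67 and 2.77 on the log2 scale in the 3 heterozygous genotypes and Kcnh4 at -2.69, -2.58 and -2.77. Kcnq5, a Kv7 channel, was at -1.02 in wild type and at -1.56, -0.84 and -1.07 in the heterozygous genotypes. Unlike in wild type, its ranges overlapped in Mrpl40 het (42.66 to 152.5 CPM in hippocampus and 106.4 to 140.3 in cortex). They also overlapped in double het (29.35 to 126.2 and 110.5 to 150.9 CPM), but not in Slc25a1 het (22.26 to 62.47 and 110.6 to 150 CPM).

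**Figure D4:**
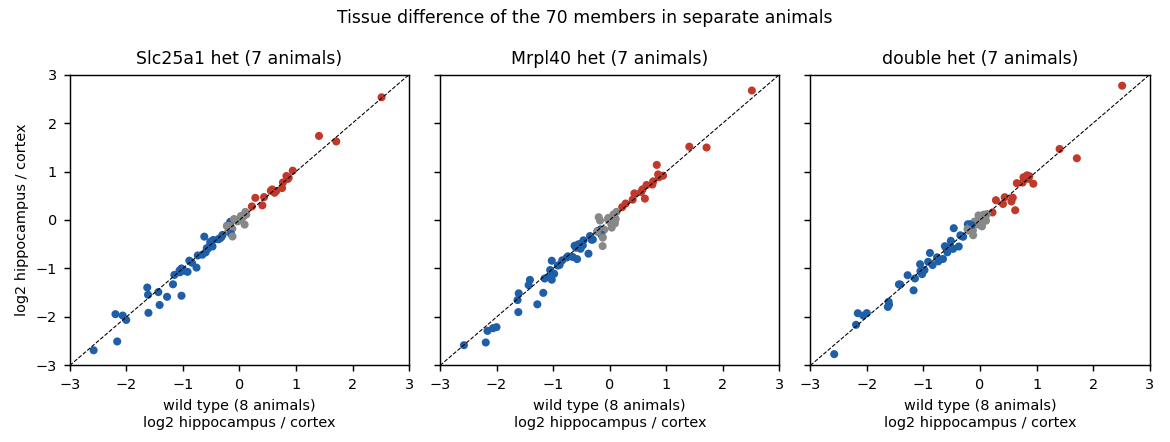
Log2 fold change of hippocampus against cortex of each member in wild type (x axis, 8 animals) and in each heterozygous genotype (y axis, 7 animals each), with equality as a dashed line and the wild-type call as colour. The points lie along the line in all 3 panels.

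The tissue difference itself was not shown to depend on genotype for any member. The edgeR test of the difference between each heterozygous genotype and wild type called 0 of 70 members in all 3 cases, where 0%, 0% and 0.0234% of all genes passed for Slc25a1 het, Mrpl40 het and double het. At an unadjusted p under 0.05 there were 2, 5 and 5 members, against 6%, 5.83% and 5.03% of all genes, and DESeq2 called 0 members in each (0%, 0% and 0.0702% of all genes). Nearest to the threshold were Kcnv1 (-0.31 ± 0.14) and Kcnh2 (-0.15 ± 0.074) in Slc25a1 het, Kcnf1 (-0.33 ± 0.11) and Kcnj6 (0.31 ± 0.11) in Mrpl40 het, and Kcnf1 (-0.28 ± 0.11) in double het. Their edgeR adjusted p-values were 0.822 or higher. These 3 tests share the wild-type libraries. Without the 6 animals whose Slc25a1 goes against the label 0 members were called in each (0% of all genes).

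Hippocampus libraries spread more than cortex libraries in these genes. The SD of log2 CPM within genotypes was larger in hippocampus for 58 of 70 members (82.9%), with a median of 0.20 against 0.13 in cortex. Over all genes tested it was larger in hippocampus for 63.7%, with medians of 0.19 and 0.16. Deviations of the members from the tissue median (root mean square, log2) were largest in wild-type library 8 (0.46), Mrpl40 het library 5 (0.44) and Slc25a1 het library 3 (0.41), against a median of 0.20 in hippocampus and a highest value of 0.25 in cortex. In wild-type hippocampus, library 8 was the highest of its group for 20 of the 39 members that were lower than in cortex and the lowest for 6 of the 17 that were higher. Within the other hippocampus groups, double het library 1 was the highest for 20 of the 39, and Mrpl40 het library 5 and double het library 5 were the lowest for 9 and 8 of the 17. Wild-type library 8 is also the library with the highest neocortical layer marker sum, and the part of that in these values was not tested. Without its animal 18 members were higher and 39 lower in wild type (60.2% of all genes), and the log2 fold change was -2.34 for Kcnt1, -1.86 for Kcnj12, -2.18 for Kcnh7 and 2.60 for Kcng2, each farther from 0 than with it. Without the 4 libraries whose markers stand apart, and the cortex of the same animals, 18 were higher and 40 lower (60.3% of all genes). Without the 6 animals whose Slc25a1 goes against the label, 17 were higher and 37 lower (55% of all genes).

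No member differed between a heterozygous genotype and wild type within a tissue by the edgeR test, which was run over 20394 genes in cortex and 20162 in hippocampus. In cortex 0 of 70 members passed in Slc25a1 het, Mrpl40 het and double het, where 0%, 0.0294% and 0.0686% of all genes did. In hippocampus 0 of 70 passed, against 0%, 0.00496% and 0.00992% of all genes. At an unadjusted p under 0.05 there were 0, 6 and 7 members in cortex (3.17%, 6.94% and 10.9% of all genes) and 3, 8 and 4 in hippocampus (7.77%, 8.19% and 5.28%). DESeq2 called 1 member, Kcnab1, in cortex labelled double het and 0 in the other 5 comparisons, where it called 0%, 0.113% and 0.659% of all genes in cortex and 0%, 0.0699% and 0.0298% in hippocampus. Without the 6 animals whose Slc25a1 goes against the label, edgeR called 0 members in each of the 6 comparisons (0.00491%, 0.0344% and 0.00983% of all genes in cortex and 0.00491%, 0% and 0.00491% in hippocampus). These comparisons share the wild-type libraries of their tissue, so their values are given side by side only.

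In cortex the member differences (log2) spanned -0.22 to 0.14 for Slc25a1 het, -0.30 to 0.19 for Mrpl40 het and -0.31 to 0.36 for double het. In hippocampus they spanned -0.47 to 0.43, -0.51 to 0.32 and -0.35 to 0.20. Medians over the members were 0.011, 0.0084 and 0.020 in cortex (all genes -0.00043, -0.0020 and -0.0034) and -0.0071, -0.037 and 0.015 in hippocampus (all genes 0.0045, -0.0070 and -0.0029). The 95% interval lay within a 1.5-fold change in either direction for 70, 69 and 68 members in cortex and for 63, 64 and 66 in hippocampus. It was widest for Kcna5 in cortex and Kcnq5 in hippocampus, in each of the 3 genotypes. These intervals are not adjusted for the number of genes tested, while the p-values behind the calls are. With 7 to 9 libraries a group, changes inside the intervals are not excluded. The intervals compare groups as labelled, which include the 6 animals whose Slc25a1 goes against the label. Intervals without these animals are not given here, and Mrpl40 did not separate its labels.

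**Figure D5:**
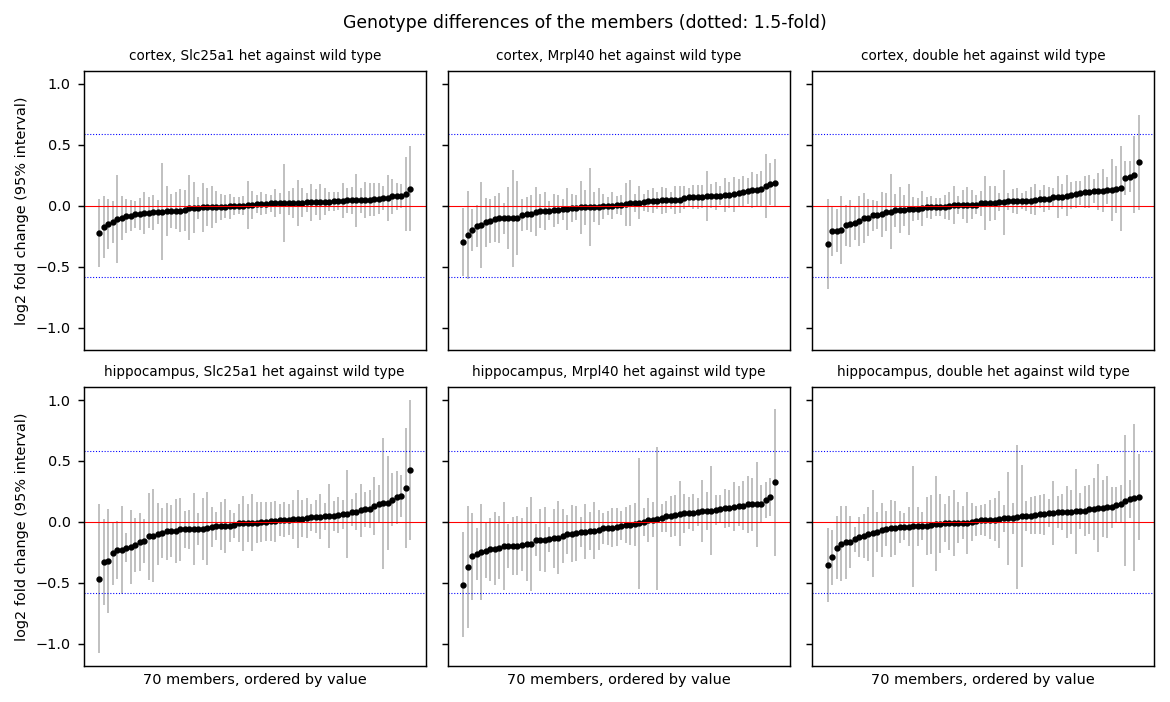
Log2 fold change of each member (points, ordered by value) with its 95% interval (bars) in each heterozygous genotype against wild type, cortex in the upper and hippocampus in the lower row, with 1.5-fold dotted. Most intervals cross 0 and lie within the dotted lines, and bars are longer in hippocampus.

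The members nearest to the threshold were these. In cortex labelled double het, Kcnab1 was at 73.8 ± 6.37 CPM in wild type (SD, n = 9) and 86.4 ± 4.36 CPM in double het (SD, n = 7), with ranges of 61.9 to 82.5 CPM (median 75.4) and 77.1 to 90.3 CPM (median 87.3) that overlapped. Its log2 difference was 0.24 ± 0.063 (SE, edgeR adjusted p 0.116), the smallest adjusted p of a member in any genotype comparison. DESeq2 called it, at 0.24 and an adjusted p of 0.0353, and over all alternatives its adjusted p ran from 0.0353 to 0.589. The inward rectifier Kcnj12 was at 0.23 ± 0.069 there (edgeR adjusted p 0.182), with 8.68 to 12.5 CPM (median 10.0) in wild type and 9.49 to 13.1 CPM (median 11.6) in the double heterozygotes. For Mrpl40 het in cortex, Kcnk12 (-0.20 ± 0.085) and Kcnt2 (0.12 ± 0.054) had the smallest p, and in Slc25a1 het Kcnf1 (0.081 ± 0.048) and Kcnj14 (-0.22 ± 0.14), with edgeR adjusted p-values of 0.664 to 0.9999.

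In hippocampus, the SK channel Kcnn1 was lowest in p in Slc25a1 het: 17.1 ± 0.788 CPM in wild type (SD, n = 8) and 14.9 ± 0.622 CPM in Slc25a1 het (SD, n = 7), a log2 difference of -0.21 ± 0.060 (edgeR adjusted p 0.457). Kcnn3, another SK channel, was at 0.21 ± 0.086, in the other direction. Kcnip3 was at -0.14 ± 0.051 in Mrpl40 het and -0.14 ± 0.051 in double het. Kcnj6 in Mrpl40 het (0.20 ± 0.078) and Kcne1l in double het (-0.29 ± 0.11) were the others. None of these passed (edgeR adjusted p 0.457 or higher).

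Whether both alleles together act as the sum of each was asked with an interaction term, in which a value of 0 means that the log2 differences add. The edgeR test called 0 of 70 members in cortex and 0 in hippocampus (0% of all genes in both), with 2 and 4 members at an unadjusted p under 0.05 (5.35% and 3.39% of all genes) and 0 in both by DESeq2 (0.00981% and 0% of all genes). Without the 6 animals edgeR called 0 in both (0.00491% and 0% of all genes), and the value of Kcnh6 was 1.30 (edgeR adjusted p 0.936). In cortex Kcnd3 (0.25 ± 0.094) and Kcna1 (0.40 ± 0.18) and in hippocampus Kcnn1 (0.31 ± 0.085) and Kcnh6 (0.88 ± 0.30) had the smallest p, with edgeR adjusted p-values of 0.82 or higher. The interval of Kcnh6, an ERG channel at a mean of 1.96 CPM in wild-type hippocampus, ran from 0.27 to 1.5. Intervals lay within 1.5-fold for 65 members in cortex and 52 in hippocampus, with all animals in their groups as labelled. Among the 15 tested partner genes with other names, the smallest edgeR adjusted p in any genotype, interaction or tissue-difference test was 0.496.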

How the data were processed

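Poly(A) RNA of cortex and hippocampus was sequenced from stranded paired-end libraries, per the labels' protocols. The authors deposited raw counts per gene, and the submitters' processing notes name FastQC, HISAT2, featureCounts and DESeq2 with the build GRCm39 (mm39). Their versions and the strand setting of the counting were not given in the sources used here. CPM was computed from these counts and the library total. Exon lengths came from GENCODE (GRCm38) and promoters from RefSeq (GRCm38.p6), matched by gene identifier or symbol.

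Tests used edgeR 4.0.16 (R 4.3.3) with TMM, filterByExpr, robust quasi-likelihood fits and Benjamini-Hochberg adjustment over all genes tested, at a threshold of 0.05. The tissue fit used 58 libraries of 29 animals, with the animal as a block and 1 tissue coefficient per genotype. Pairing by animal comes from the labels, and same-animal deviations over 5000 genes had a median r of 0.109 (-0.0294 to 0.414), against -0.0099 for other animals. Genotype fits took all groups of 1 tissue with no covariate. The code was checked on simulated counts, and DESeq2 1.42.0 was an alternative. The members, the lists and 6 animals whose Slc25a1 goes against the label were chosen with earlier results of these data known.

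Members named with values are the 12 largest rises and falls past the test in wild type, the 2 smallest p-values of each other comparison, the highest CPM of each list, and the members at the threshold. Others are named to account for the members of a list. Results of a few members are not reported here, while counts and medians over the 70 members include them.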

Additional observations from a re-analysis of the deposited data

Results flagged for a closer look

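Of 77 groups of 7 to 9 libraries examined for the named members, 14 had 1 library whose gap to its neighbour was large for the range of the group by Dixon's test, which flags about 1 in 20 groups by chance. Library 8 of wild-type hippocampus was the library in 9 of these, and the part of its marker sums in these values was not tested. In that group it was the highest for Kcna2 (261.9 CPM), Kcnab3 (42.2), Kcnh7 (64.0), Kcnj12 (7.60), Kcnk3 (15.6), Kcnma1 (264) and Kcnt1 (120.3). It was the lowest for Kcng2 (12.6 CPM) and Kcnip2 (185.7). Kcng1 was highest in wild-type hippocampus library 2 (87.6 CPM). In wild-type cortex Kcne1l was highest in library 8 (2.57 CPM) and Kcnk3 in library 5 (33.8 CPM). Kcnab1 was lowest in cortex double het library 2 (77.1 CPM), and Kcnip3 was highest in hippocampus Mrpl40 het library 6 (103.7 CPM).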

How the results depend on the processing

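The count of members that differed between the tissues in wild type was 56 and ran from 47 to 58 over all settings, with 15 to 18 higher and 32 to 40 lower. It was 47 when a fold of at least 1.2 was asked for (33.1% of all genes), and 58 with wild-type libraries alone. Over the same settings, double het had 45 to 54 calls, Mrpl40 het 49 to 60 and Slc25a1 het 44 to 55. In the main fits 57.5%, 60.3% and 60.4% of all genes passed in these genotypes, and 60.6% in wild type. These are shares of the main fits only, while the low ends of the ranges come from other settings. A minimum of 0.5 CPM gave 76 members with 57 calls, and 2 CPM in either tissue or 1 CPM in both gave the same 70 members. No named member changed direction. Asking for a fold of at least 1.2 removed the call of Kcnj3, whose value is near that fold. With DESeq2, 1 member was called in cortex labelled double het in place of 0, Kcnab1 (0.24, adjusted p 0.0353), and the cause was not tested. No other setting called a member in a genotype, interaction or tissue-difference comparison.

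The animal pairs the tissues. Without the replicate block (the animal), in a fit of all 59 libraries, the tissue counts were 56, 55, 60 and 52. With the block, in the 58 libraries of animals with both tissues, they were the same, and 60.6%, 60.4%, 60.3% and 57.5% of all genes passed. Replicate numbers of the labels do not mark a shared animal between genotypes, and deviations of same-numbered libraries had correlations of -0.41 to 0.53 (median 0.13) in cortex and -0.46 to 0.53 (median 0.053) in hippocampus. With the replicate number as a block, 0 members were called in each genotype and interaction comparison. Without the 6 animals whose Slc25a1 goes against the label, 54 members differed between the tissues in wild type (55% of all genes) and 0 between genotypes. Leaving out hippocampus wild-type replicate 8, or all 4 hippocampus libraries that stand apart, was chosen after seeing the data. Intervals were widest for Kcnj12 between the tissues and, between genotypes, for Kcna5 in cortex and Kcnq5 in hippocampus, and the part of depth in this was not tested.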
